A study of Homo sapiens with 6 samples.

Results

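The MYC, MAX and MXD network is described here through 10 genes named by their place in it. The activators are *MYC*, *MYCL* and *MYCN*. *MAX* and *MLX* encode the partners, and *MXD1*, *MXD3*, *MXD4*, *MXI1* and *MNT* encode the antagonists. All 10 were found among the 63677 genes of the count table, and 9 of them had enough reads to be among the 12507 genes tested. *MYCN* had 0 reads in all 6 libraries. The rule that names them uses no measured value.

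RNA was sequenced from LoVo, a line derived from human colorectal cancer, in 6 libraries. In 3 libraries the cells had been transfected with siRNA against *SNHG15*, a long non-coding RNA that hosts a snoRNA in an intron, and in the other 3 with a scramble siRNA. Every well received 25 nM siRNA with a cationic lipid for 48 h, so that the lipid and a transfected siRNA were common to both conditions. According to the methods, the *SNHG15* libraries received both *SNHG15* siRNAs together, and their separate effects cannot be told apart. The comparison asks which genes of the network had another transcript level once *SNHG15* was depleted. The methods call the 3 libraries of a condition biological replicates, while the labels number them without saying what a replicate is, so p-values measure the spread between these libraries.

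MYC family proteins are basic helix-loop-helix leucine zipper factors that bind DNA as dimers with MAX. The dimer recognises the E-box, CACGTG, and recruits histone acetyltransferases and elongation factors that raise transcription of genes for ribosome production, nucleotide synthesis and growth. The MXD proteins, MXI1 and MNT take MAX for themselves, bind the same E-boxes and bring the SIN3 corepressor with its histone deacetylases, so that target output depends on the balance between both kinds of dimer. MLX is a MAX-like partner of MondoA and ChREBP, which respond to glucose, and also dimerises with MNT and MXD4. In colorectal cancer, *MYC* is a known target of WNT signalling.

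The E-box was looked for in the promoters of the network itself, because members of the network can bind there. RefSeq promoter windows on GRCh38.p14, from 250 bases before to 50 bases after each start, were matched by symbol. CACGTG reads the same on both strands, so that a single search covers both. Windows were matched for 9 of the 10 members. *MYC* was the member without a window, so its promoter was not searched. Of these 9 genes, 3 held the E-box, *MXD4*, *MNT* and *MLX*. Of all 35116 windows, 7.26% held it, and of the 9114 tested genes with a window, 13% did. The stretches below show these 3 members and, for comparison, *RCC1* and *ODC1*, genes that MYC is known to activate and whose counts are described further on. Each reads 5′ to 3′ in the direction of transcription, and capitals mark the E-box.
MXD4, chr4:2262322-2262359, minus strand, E-box at -238 from the start: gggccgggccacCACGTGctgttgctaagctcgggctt
MNT, chr17:2401228-2401273, minus strand, E-box at -193: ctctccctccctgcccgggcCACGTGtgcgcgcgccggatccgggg
MLX, chr17:42567030-42567075, plus strand, E-box at -50: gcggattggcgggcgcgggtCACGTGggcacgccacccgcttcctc
RCC1, chr1:28518016-28518061, plus strand, E-box at -190: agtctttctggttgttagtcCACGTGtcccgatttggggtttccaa
ODC1, chr2:10448016-10448061, minus strand, E-box at -29: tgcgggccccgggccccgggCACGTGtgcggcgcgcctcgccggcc
A match is a description of the letters in a window. Binding was not measured here.

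The libraries held 3446922 to 10256710 counted reads, and scramble replicate 3 was the shallowest. Levels are given as CPM, read counts scaled to a common library size with TMM factors that correct for differences in composition between libraries, and 3 reads correspond to 0.298 to 0.907 CPM. On the first principal component, which held 46.0% of the variance, the scramble libraries lay between -24.0 and -17.0, while siRNA replicate 1 lay at 39.1, apart from siRNA replicates 2 and 3 at 14.3 and 11.5. The fold changes of *MYC*, *MXD1*, *MXD4* and *MNT*, and the ratio of *MXD4* to *MXD1*, are given below with and without that library. *SNHG15* was measured at 290, 277 and 261 CPM in the scramble libraries and at 77.2, 83.1 and 87.2 CPM with the siRNAs, a log2 fold change of -1.74 (SE 0.12, edgeR adjusted p = 2.62e-05). Of 10 markers of colorectal epithelium, *KRT8*, *KRT18*, *CDH1* and *CDX2* passed the filter, whereas 6, among them *EPCAM* and *VIL1*, had at most 3 reads in every library. The abundant gene *FTH1* also stood at that floor, so a gene listed near 0 in this table cannot be read as silent from its count alone. Of 13 markers of other cell types, 11 stood at the floor, and their summed level was 0.895 to 0.937 CPM with scramble and 1.15 to 3.05 CPM with the siRNAs. Its part in the results was not tested.

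None of the 9 tested members passed an adjusted p of 0.05 in edgeR (quasi-likelihood F test, Benjamini-Hochberg correction across the 12507 genes). Over all genes, 671 (5.36%) passed, 279 lower (2.23%) and 392 higher (3.13%) with the siRNAs. That split became 230 lower and 515 higher with upper-quartile scaling, and 552 lower and 442 higher with an offset for GC content. At an unadjusted p under 0.05, 4 members passed, *MYC*, *MXD1*, *MXD4* and *MNT*, against 22.5% of all genes. DESeq2, the program named in the methods, called 1 member, *MYC*, at an adjusted p under 0.05, against 6.05% of the genes for which it gave a value. Of the 9 members, 6 had lower and 3 had higher estimates with the siRNAs. The median of their log2 fold changes was -0.09, beside 0.00 over all tested genes. The scramble and siRNA libraries did not overlap for 5 members, lower for *MYC*, *MXD1* and *MNT* and higher for *MXD3* and *MXD4*. That is 55.6% of 9 genes, beside 28.8% of all tested genes. In bulk RNA such as this, fewer cells of a type and less RNA per cell cannot be told apart.

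**Figure D1:**
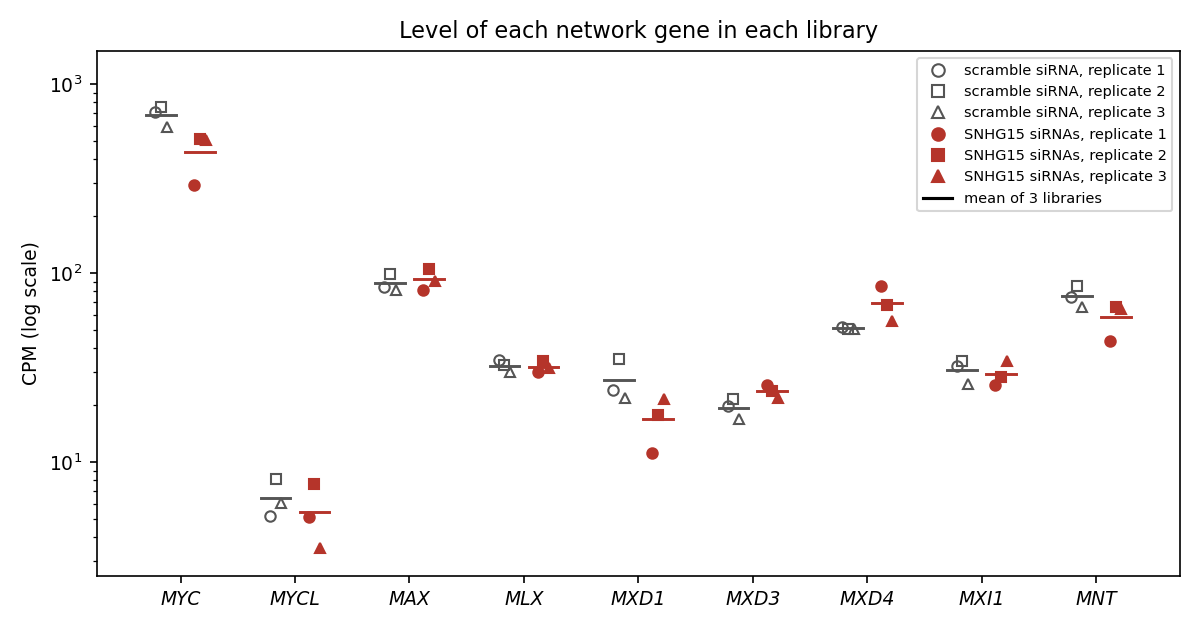
The level of each tested network gene in each library, in CPM on a log axis. Open grey symbols are scramble libraries, filled red symbols are *SNHG15* siRNA libraries, symbol shapes give the replicate number and lines give the mean of 3 libraries. *MYC* stands far above the other genes, and its siRNA libraries, at 291 to 512 CPM, all lie under its scramble libraries, at 591 to 757 CPM.

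*MYC* (ENSG00000136997) lies on chromosome 8 from 128747680 to 128755197 of hg19, on the plus strand. The scramble libraries had 708, 757 and 591 CPM. The siRNA libraries had 291, 512 and 503 CPM. All siRNA libraries lay under all scramble libraries, and siRNA replicate 1 was the lowest of the 6 by a wide margin. The means were 686 ± 85.1 CPM (SD, n = 3) and 435 ± 125 CPM (SD, n = 3), a log2 fold change of -0.66 (SE 0.19, 95% interval -1.07 to -0.25), or 0.635 times the scramble level. The edgeR adjusted p was 0.0613 and the unadjusted p 0.00426, at rank 869 of all tested genes, whereas DESeq2 gave -0.67 with an adjusted p of 0.0130. The call thus differed between both programs on the same counts. Without siRNA replicate 1 the log2 fold change was smaller, -0.44, but its edgeR adjusted p was 0.0462, with the other 2 siRNA libraries close together. *CASC11*, on the opposite strand, shares 3.18% of the exon bases of *MYC* and had 14 reads over all libraries.

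The other activators had little or no signal. *MYCL* (ENSG00000116990, chromosome 1, 40361100 to 40367928, minus strand), the family member first found in small cell lung cancer, had 44, 82 and 20 reads with scramble. It had 37, 53 and 30 reads with the siRNAs. In CPM the conditions overlapped, with means of 6.45 ± 1.54 and 5.43 ± 2.07 (SD, n = 3 each). Its log2 fold change was -0.29, with a 95% interval of -0.92 to 0.35 that allows changes in both directions (SE 0.29, edgeR adjusted p = 0.604). *MYCN* (ENSG00000134323, chromosome 2, 16080672 to 16087129), known from neuroblastoma, had 0 reads in every library, which allows at most 0.298 to 0.907 CPM in a single library by counting error.

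*MAX* (ENSG00000125952, chromosome 14, 65472892 to 65569413, minus strand) encodes the partner that activators and antagonists share. It was measured at 84.4, 98.5 and 81.6 CPM with scramble. With the siRNAs it was at 81.5, 105 and 90.7 CPM, so that the conditions overlapped. Its log2 fold change of 0.06 (SE 0.14) had a 95% interval of -0.23 to 0.35 and an edgeR adjusted p of 0.826. The interval does not reach a fall as large as the estimate for *MYC*. Exons of *FNTB* on the other strand cover 13.1% of the exon bases of *MAX*, with 896 reads counted for *FNTB* over all libraries, and whether reads were assigned by strand is not given in the sources used here.

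*MLX* (ENSG00000108788, chromosome 17, 40719090 to 40725257, plus strand), the partner of the glucose-responsive Mondo proteins, had the smallest estimate of all members. Its scramble libraries were at 34.5, 32.5 and 29.9 CPM. Its siRNA libraries were at 29.9, 34.2 and 31.5 CPM, within almost the same range. The log2 fold change was -0.03 (SE 0.14, 95% interval -0.33 to 0.27, edgeR adjusted p = 0.932), and its sign changed with upper-quartile scaling. The promoter window of *MLX* holds an E-box 50 bases before its start, as shown above.

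Among the antagonists, *MXD1* and *MNT* had lower estimates and *MXD4* and *MXD3* higher ones. *MXD1* (ENSG00000059728, chromosome 2, 70124820 to 70170077, plus strand) encodes MAD1, which is known to rise as cells leave the cycle and differentiate. It was at 24.0, 35.2 and 21.8 CPM with scramble. With the siRNAs it was at 11.2, 17.7 and 21.5 CPM. The conditions did not overlap, but the nearest libraries, scramble replicate 3 and siRNA replicate 3, lay almost at the same level. The log2 fold change was -0.70 (SE 0.23, 95% interval -1.21 to -0.20), or 0.614 times the scramble level, with an edgeR adjusted p of 0.0966 and a DESeq2 adjusted p of 0.0725. Without siRNA replicate 1 it was -0.50, with an edgeR adjusted p of 0.141. *SNRNP27*, on the same strand, shares 3.73% of the exon bases of *MXD1* and had 2874 reads over all libraries.

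*MXD4* (ENSG00000123933, chromosome 4, 2249159 to 2263836, minus strand) encodes MAD4, another MAX-binding repressor. The scramble libraries lay within a narrow range, at 51.7, 50.3 and 50.8 CPM. The siRNA libraries were spread over 85.1, 67.3 and 55.8 CPM, all above the scramble libraries. The log2 fold change was 0.44 (SE 0.16, 95% interval 0.11 to 0.78), or 1.36 times the scramble level. Its edgeR adjusted p was 0.115 and its DESeq2 adjusted p 0.129. The highest value came from siRNA replicate 1, and without that library the log2 fold change was 0.27 with an edgeR adjusted p of 0.214. Its E-box, printed above, stands near the far end of the window.

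*MXD3* (ENSG00000213347, chromosome 5, 176728462 to 176739758, minus strand) encodes the antagonist that, unlike the others, is known from cells in S phase. It was at 19.8, 21.5 and 16.9 CPM with scramble and at 25.6, 23.6 and 21.8 CPM with the siRNAs. The conditions did not overlap, yet the gap between them was small beside the spread within each. The log2 fold change was 0.27 (SE 0.15, 95% interval -0.06 to 0.60, edgeR adjusted p = 0.323). *RAB24* on the same strand shares 19.5% of its exon bases and had 291 reads over all libraries, and *PRELID1* on the other strand shares 24.2% and had 37 reads.

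*MNT* (ENSG00000070444, chromosome 17, 2287367 to 2304398, minus strand) encodes a repressor that is present in resting and in dividing cells alike. Its scramble libraries were at 74.5, 85.0 and 66.2 CPM. Its siRNA libraries were at 43.4, 66.2 and 64.8 CPM. The conditions met at 66.2 CPM and were apart only in further digits, and siRNA replicate 1 was the lowest library. The log2 fold change was -0.38 (SE 0.17, 95% interval -0.74 to -0.02, edgeR adjusted p = 0.204), and -0.22 without siRNA replicate 1 (adjusted p = 0.325). *MXI1* (ENSG00000119950, chromosome 10, 111967363 to 112047123, plus strand), which encodes MAD2, overlapped between conditions, at 32.0, 34.3 and 26.0 CPM with scramble and 25.4, 28.0 and 34.1 CPM with the siRNAs. Its log2 fold change was -0.09 (SE 0.16, 95% interval -0.44 to 0.26, edgeR adjusted p = 0.776).

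Across these estimates, siRNA replicate 1 was the lowest of the 3 siRNA libraries for *MYC*, *MXD1*, *MNT*, *MXI1*, *MAX* and *MLX*, and the highest for *MXD3* and *MXD4*. This is also the library that stood apart on the first principal component, and its part in these values was not tested.

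**Figure D2:**
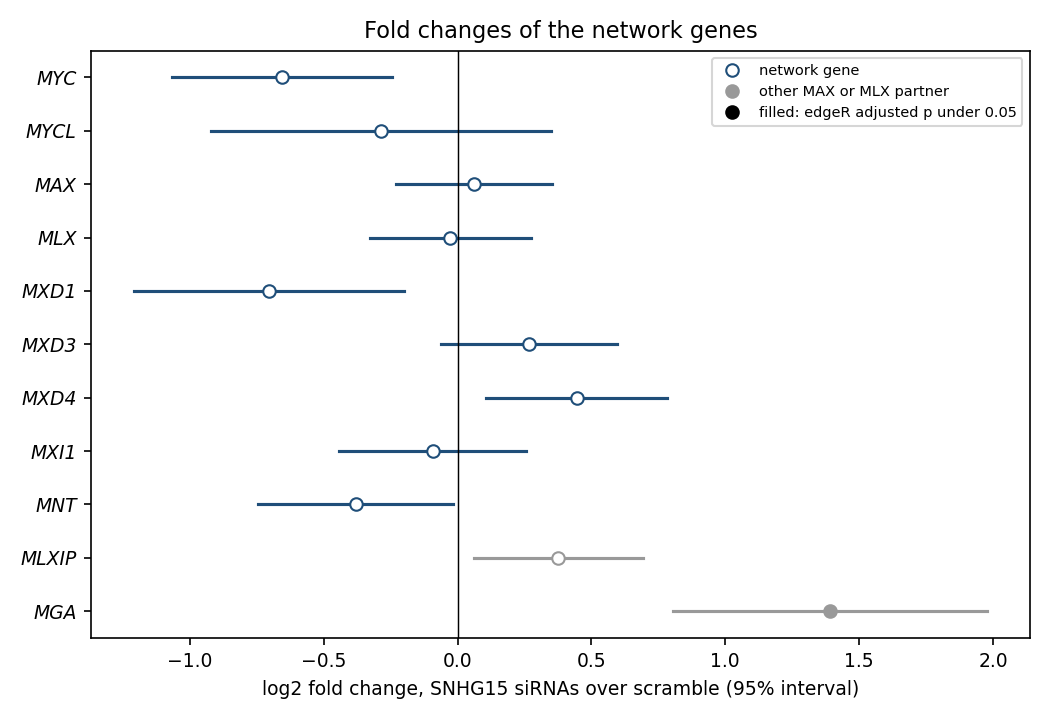
Log2 fold changes of *SNHG15* siRNAs over scramble with 95% intervals from the edgeR fit, for the 9 tested members in blue and for *MLXIP* and *MGA*, other partners of MLX and MAX, in grey. Filled circles passed an edgeR adjusted p of 0.05. No member is filled, the intervals of *MYC*, *MXD1*, *MXD4* and *MNT* stop short of 0, and *MGA* lies at 1.39.

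Complementary sites for the seeds of both siRNAs, bases 2 to 8 of each guide strand, were looked for in the 3′ UTR of 1 transcript per gene. The sites are ATGTTCA for the first and CACAGCA for the second siRNA, on the sense strand. *MNT* held 1 site of the first siRNA, and *MXI1* and *MLX* held 1 site each of the second. The other 7 members held neither. Of 10483 tested protein-coding genes, 28.3% held at least 1 site. Whether a site had a part in the level of *MNT* was not tested.

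To compare levels between genes, CPM were divided by the length of the union of exons in kilobases. On this scale the scramble libraries had *MYC* at 112 ± 13.9 CPM per kilobase, above 95.5% of 12264 genes with a length. *MAX* followed at 14.1 ± 1.44, then *MNT* at 8.65 ± 1.08, *MLX* at 7.59 ± 0.532 and *MXD4* at 7.41 ± 0.0996 CPM per kilobase (SD, n = 3 each). *MXI1* at 5.21 ± 0.726, *MXD1* at 4.25 ± 1.13 and *MXD3* at 4.09 ± 0.485 formed a lower group, and *MYCL* was last at 1.30 ± 0.310 CPM per kilobase. Within the trio of *MNT*, *MLX* and *MXD4*, and within that of *MXI1*, *MXD1* and *MXD3*, neighbouring genes in this order overlapped between the scramble libraries. *MAX* lay wholly above *MNT*, *MXD4* wholly above *MXI1* and *MXD3* wholly above *MYCL*. The order of means within the trio of *MXI1*, *MXD1* and *MXD3* depended on the length used, as did the overlap of *MNT* with *MLX*. The order of means of *MNT*, *MLX* and *MXD4* did not. With the length of the longest transcript, *MXD3*, at 8.52 ± 1.01 CPM per kilobase, lay wholly above *MXD1*, at 4.84 ± 1.29 (SD, n = 3 each). *MNT*, at 13.4 to 17.3, then lay just above *MLX*, at 11.6 to 13.3 CPM per kilobase. With the siRNAs, *MYC* was at 71.3 ± 20.5, *MAX* at 14.8 ± 1.87, *MXD4* at 10.1 ± 2.15, *MNT* at 6.68 ± 1.47 and *MXD1* at 2.65 ± 0.817 CPM per kilobase. *MXD4* then stood above *MNT* in the order of means.

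The ratios between members put these levels together for each library, as a description without a test. Per kilobase, *MYC* stood at 8.60, 7.88 and 7.42 times *MAX* in the scramble libraries. It stood at 3.66, 5.01 and 5.68 times *MAX* in the siRNA libraries. The means were 7.96 ± 0.595 and 4.78 ± 1.03 (SD, n = 3 each), and the conditions did not overlap, with *MYC* well in excess of *MAX* transcripts in all 6 libraries. With the length of the longest transcript in place of the union of exons, the means were 6.59 and 3.96.

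Set against the sum of its antagonists per kilobase, *MYC* was at 3.94, 3.76 and 3.67 with scramble. It was at 1.65, 2.80 and 2.81 with the siRNAs. The sum of the antagonists itself overlapped between conditions, at 29.6 ± 3.29 and 29.4 ± 0.533 CPM per kilobase (SD, n = 3 each), as did its ratio to *MAX*, 2.10 ± 0.0807 and 2.01 ± 0.214. Within that sum, *MXD1* and *MXD4* had estimates of opposite sign. The ratio of *MXD4* to *MXD1*, a pair chosen after their values were seen, was 1.99, 1.32 and 2.16 with scramble and 7.0, 3.52 and 2.40 with the siRNAs. The highest of these ratios was that of siRNA replicate 1. The means were 1.82 and 4.31, and their difference was 1.14 without that library.

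**Figure D3:**
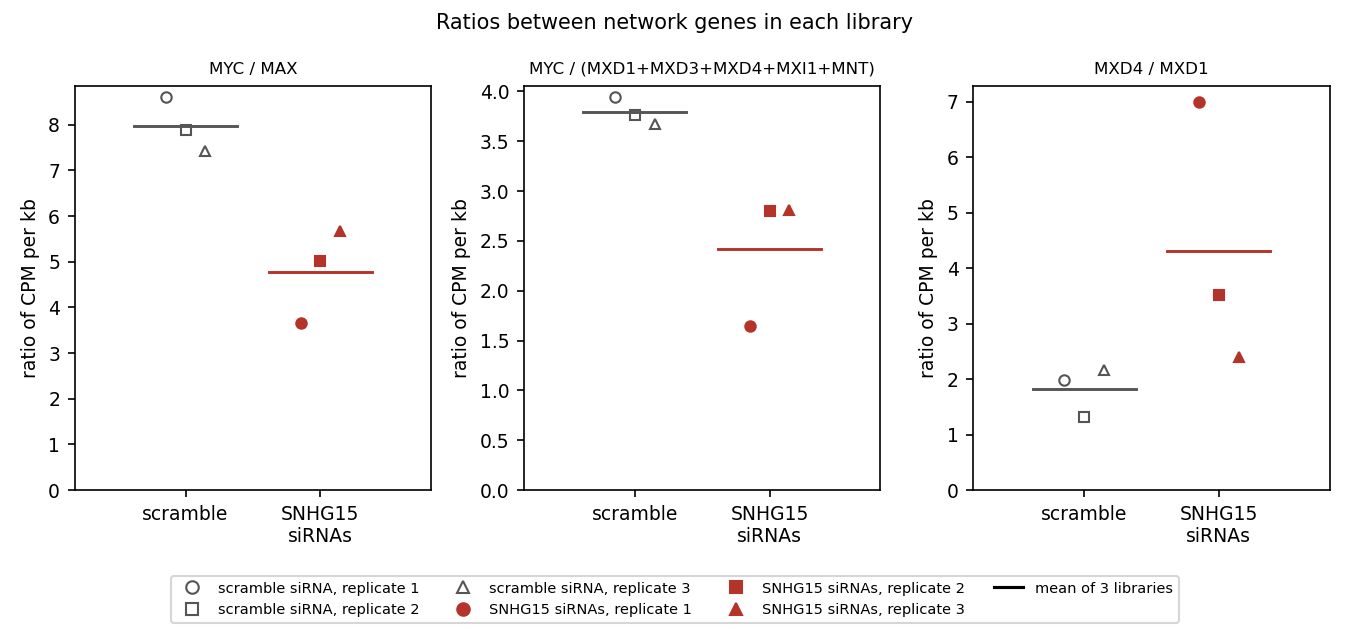
Ratios of CPM per kilobase in each library, from 0 on each axis, for *MYC* over *MAX*, *MYC* over the sum of its antagonists, and *MXD4* over *MXD1*. Lines give the mean of 3 libraries and symbols the replicate. *MYC* over *MAX* spans 7.42 to 8.60 with scramble and 3.66 to 5.68 with the siRNAs, and siRNA replicate 1 is the extreme library in every panel.

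Other factors of the same families were read from a list of 12 genes, of which 10 were tested. Of these, 4 had lower and 6 higher estimates, with a median log2 fold change of 0.28, and edgeR called 2, both higher. Over all tested genes, edgeR called 5.36%, of which 3.13% were higher and 2.23% lower. *MGA*, which encodes a MAX partner that represses E-box and T-box genes, rose from 5.39, 2.59 and 3.33 CPM to 11.5, 8.63 and 9.87 CPM, a log2 fold change of 1.39 (SE 0.27, edgeR adjusted p = 0.0122). *BHLHE41*, an E-box repressor of the circadian clock, averaged 6.09 ± 0.954 CPM with scramble and 12.2 ± 3.00 CPM with the siRNAs (SD, n = 3) and rose by 1.00 on the log2 scale (SE 0.23, edgeR adjusted p = 0.0243). Both are low in reads. *MLXIP*, which encodes MondoA, was at 58.7, 63.9 and 59.9 CPM with scramble and 94.8, 75.7 and 66.8 CPM with the siRNAs, with a log2 fold change of 0.38 that did not pass (SE 0.15, edgeR adjusted p = 0.147).

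Genes that MondoA and MLX are known to drive were tested for 5 of 6, and *TXNIP* had at most 3 reads in every library. All 5 had lower estimates, beside 49.95% of all tested genes, with a median log2 fold change of -0.34. Neither edgeR nor DESeq2 called any of them, beside 5.36% and 6.05% of all genes. An unadjusted edgeR p under 0.05 was found for 2, *ARRDC4* and *KLF10*, beside 22.5% of all tested genes. Without a filter on low counts, edgeR called these 2 genes (adjusted p = 0.0440 and 0.0366), and 1312 of 23675 genes in all. *ARRDC4*, an arrestin-like regulator of glucose uptake, had 9.90 ± 1.92 CPM with scramble and 5.91 ± 0.747 CPM with the siRNAs (SD, n = 3), with -0.70 as its log2 fold change (SE 0.21, edgeR adjusted p = 0.0744). *KLF10*, a zinc-finger repressor, had a log2 fold change of -0.47 (SE 0.16, edgeR adjusted p = 0.0995).

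Cofactors of MYC were tested for 17 of 18 genes, 11 lower and 6 higher, with a median log2 fold change of -0.11. Beside 5.36% of all tested genes, edgeR called only 1 of these 17, *CDK9*, the kinase of the elongation factor P-TEFb. It rose from 16.6, 19.9 and 13.6 CPM to 25.2, 32.4 and 39.6 CPM, a log2 fold change of 0.92 (SE 0.19, edgeR adjusted p = 0.0165). Genes that act on the stability of MYC protein were tested for 19 of 21, 6 lower and 13 higher, with a median of 0.11. The single one of the 19 called was *SET*, an inhibitor of the phosphatase PP2A, again beside 5.36% of all tested genes. *SET* rose from 115 ± 16.3 CPM (SD, n = 3) to 192 ± 6.41 CPM, or by 0.74 on the log2 scale (SE 0.13, edgeR adjusted p = 0.00786). Protein levels were not measured.

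The SIN3 and NCOR corepressors, which the antagonists recruit, were all tested, 18 of 18, with 10 lower and 8 higher and a median log2 fold change of -0.02. The 2 of the 18 genes called, beside 5.36% of all tested genes, were paralogs, *ARID4A* and *ARID4B*, subunits of the SIN3 complex. *ARID4A* rose by 0.98 on the log2 scale, with means of 5.12 ± 1.56 and 10.7 ± 0.858 CPM (SD, n = 3; SE 0.22, edgeR adjusted p = 0.0242). *ARID4B* rose by 0.80, with means of 10.6 ± 2.37 and 19.1 ± 3.04 CPM (SD, n = 3; SE 0.19, edgeR adjusted p = 0.0299).

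The targets of the network were read from a list of 50 genes commonly described as activated by MYC, most of them for ribosome production, nucleotide synthesis and the cell cycle. Of the 47 tested, 42 had lower and 5 higher estimates with the siRNAs, 89.4% lower beside 49.95% of all tested genes. The shift was small, with a median log2 fold change of -0.16, and edgeR called 4 genes, 3 lower and 1 higher. Over all tested genes, 5.36% were called, 2.23% lower and 3.13% higher. The summed level of the list was 11300 to 11700 CPM with scramble and 9420 to 10700 CPM with the siRNAs. These genes share regulators and libraries and are not independent of each other, and a like pattern over a MYC target list was already known when the list was written. Of the 40 listed genes with a promoter window, 52.5% held the E-box, beside 13% of tested genes.

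*RCC1*, the nucleotide exchange factor for Ran, fell from 277, 280 and 259 CPM to 128, 150 and 132 CPM, a log2 fold change of -0.99 (SE 0.12, edgeR adjusted p = 0.00177). It passed the test whichever library was left out. *MCM4*, a subunit of the replicative helicase, went from a mean of 149 ± 22.7 CPM to one of 96.0 ± 1.14 CPM (SD, n = 3) and fell by 0.63 on the log2 scale (SE 0.13, edgeR adjusted p = 0.0171). *ODC1*, which encodes ornithine decarboxylase and opens the polyamine pathway, had means of 974 ± 13.6 and 697 ± 40.2 CPM (SD, n = 3) and fell by 0.48 on the same scale (SE 0.11, edgeR adjusted p = 0.0262). The E-boxes of *RCC1* and *ODC1* are those printed above, and *ODC1* holds another at position 5 after its start. *EIF4A1*, an RNA helicase of translation initiation, was called higher, from 1.45 ± 0.279 to 6.40 ± 2.38 CPM, at levels so low for an abundant gene that its assigned reads are uncertain.

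Of 20 genes commonly described as repressed by MYC, 12 were tested, 7 lower and 5 higher, with a median log2 fold change of -0.01. edgeR called 4, and 3 of them were lower, beside 5.36% called and 2.23% called lower over all tested genes. *GADD45A* and *GADD45B*, genes of the response to DNA damage and stress, fell by 1.69 and 1.12 on the log2 scale (edgeR adjusted p = 0.00548 and 0.00325). *CDKN2B*, an inhibitor of CDK4 and CDK6, fell by 0.86 on that scale, with means of 12.6 ± 0.867 and 6.90 ± 0.336 CPM (SD, n = 3; SE 0.18, edgeR adjusted p = 0.0170). *ITGB1*, the integrin subunit of adhesion to matrix, rose from 169, 173 and 123 CPM to 569, 333 and 290 CPM (log2 fold change 1.35, SE 0.22, edgeR adjusted p = 0.00575).

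Neighbours of *MYC* and factors that act on it were tested for 11 of the 13 genes found, 9 lower and 2 higher, with a median log2 fold change of -0.21. Of these 11, edgeR called 1, beside 5.36% of all tested genes. *CASC19*, a non-coding RNA from the region beside *MYC*, had 15 to 73 reads in each library and fell from 5.27, 7.26 and 5.14 CPM to 4.02, 2.16 and 1.88 CPM, a log2 fold change of -1.18 that passed in edgeR (SE 0.31, adjusted p = 0.0441) and not in DESeq2 (adjusted p = 0.0581) or in edgeR with at least 10 counts in every library (adjusted p = 0.0506). *PVT1*, the long non-coding RNA next to *MYC*, was at 83.5 ± 13.1 CPM with scramble and 71.0 ± 1.82 CPM with the siRNAs (SD, n = 3), and its log2 fold change of -0.24 did not pass (SE 0.14, edgeR adjusted p = 0.323). Without siRNA replicate 1, all genes of these lists described above as passing in edgeR still passed, with *ARID4B* nearest to the threshold (adjusted p = 0.0495).

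**Figure D4:**
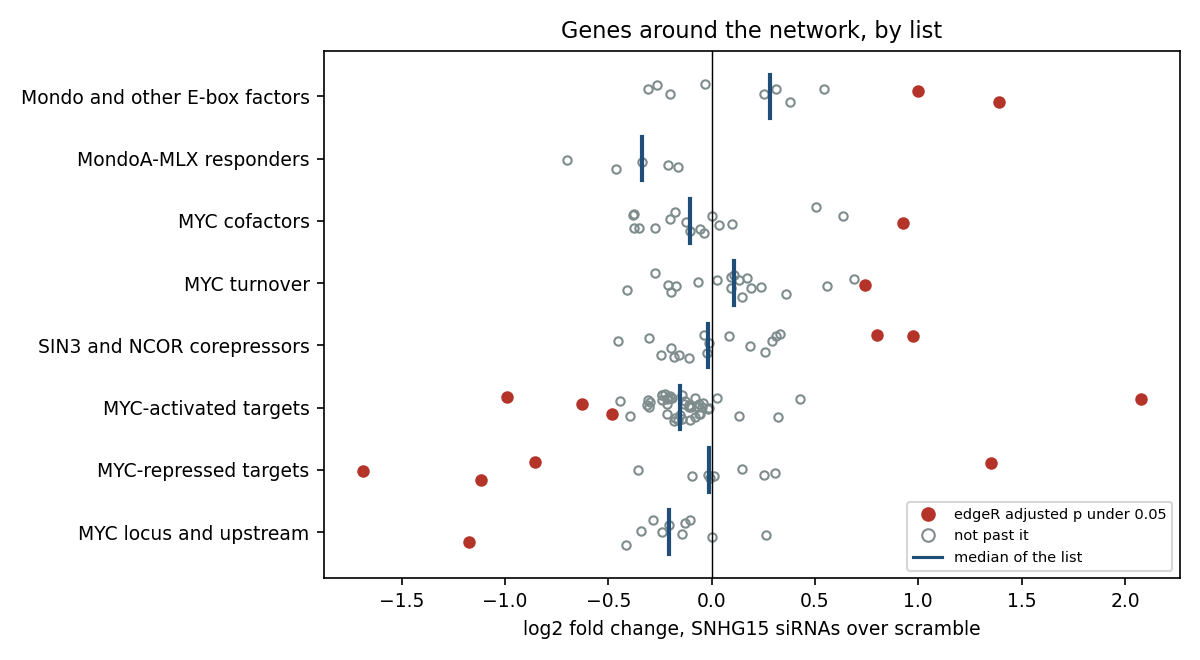
Log2 fold changes of every tested gene in the 8 lists around the network, 1 circle per gene, with the vertical position within a row arbitrary. Red circles passed an edgeR adjusted p of 0.05 and blue bars give each list's median. The MYC-activated targets crowd to the left of 0, with a median of -0.16, while most single genes did not pass.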

How the data were processed

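Total RNA of the 6 LoVo samples was made into TruSeq stranded mRNA libraries. The authors deposited raw counts, the whole number of reads assigned to each gene in each library, with no normalization. The study's methods name bowtie2 and DESeq2, whereas the submitters' processing notes name STAR, featureCounts and hg19. The annotation and the options for strand and multiply placed reads are not given in the sources used here, so genes with copies or overlapping neighbours are uncertain.

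Conditions came from the sample labels. The analysis used edgeR 4.0.16 (R 4.3.3): filterByExpr (minimum count 10, total 15), TMM, quasi-likelihood test, 3 against 3 libraries, no block, Benjamini-Hochberg adjustment over 12507 genes, threshold 0.05. The standard error is the absolute log2 fold change over the square root of F. Of 63677 genes, 23675 had counts. Names, positions and lengths came from GENCODE release 44 mapped to GRCh37, which lacked 8012 identifiers. No 2 replicates agreed within sampling noise. Floors for 0 reads (3 reads) cover counting error only. Intervals of log2 fold changes come from the standard error above and include the spread between libraries. The edgeR fit, but not the alternatives or the sequence searches, was first tested on simulated counts with known changes.

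The members and lists were chosen with earlier results of these data known. Lists were written from general knowledge. The named genes are all members, *SNHG15*, and from each list the called genes, up to 6 by p, or the 2 with the smallest p where none was called. *MLXIP*, *PVT1* and the marker and floor genes were named outside this rule, after their values were seen. Alternatives were RLE and upper-quartile factors, DESeq2 1.42.0, no filter, at least 10 counts in every library, a GC offset (loess, span 0.3), a block for replicate number, alone or with that offset, other lengths, and leaving out each library.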

Additional observations from a re-analysis of the deposited data

How the results depend on the processing

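No tested member was called by edgeR with RLE or upper-quartile factors, with at least 10 counts in every library or with the replicate block. DESeq2 called 1 (*MYC*), the absence of a filter 2 (*MYC* and *MXD1*), and the GC offset 1 and the replicate block with GC offset 1 (*MYC* in both). Over all genes these settings called, in the same order, 774 of 12802, 1312 of 23675, 994 of 12264 and 800 of 12264. With a library left out, 0 to 3 members were called. Without siRNA replicate 1 it was 1 (*MYC*, -0.44, adjusted p = 0.0462), beside 812 of 12803 genes. Without siRNA replicate 3, beside 665 of 12607 genes, 3 were called: *MYC* (-0.77, adjusted p = 0.0482), *MXD1* (-0.93, adjusted p = 0.0472) and *MXD4* (0.59, adjusted p = 0.0418).

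*MYC* stayed lower in all settings, at -0.67 in DESeq2, -0.68 without a filter (adjusted p = 4.53e-05), -0.65 with the GC offset (adjusted p = 0.0388), -0.69 with the block and the GC offset (adjusted p = 0.0462) and -0.79 to -0.44 with a library left out. *MXD1* was at -0.73 without a filter (adjusted p = 0.00277) and at -0.93 to -0.45 with a library left out, and *MXD4* at 0.27 to 0.59. The sign of *MAX* turned without siRNA replicate 2 (-0.035, adjusted p = 0.930; range over left-out libraries -0.035 to 0.16). That of *MLX* turned with upper-quartile factors (0.012), and without scramble replicate 1 (0.021) or siRNA replicate 1 (0.010; range -0.076 to 0.021). The causes were not tested. All other members kept their sign.

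Over all genes, 671 calls became 1312 without a filter and 139 to 812 with a library left out. They were 199, 139 and 266 without scramble replicate 1, 2 and 3, and 356 without siRNA replicate 2. The MYC-activated genes with lower estimates numbered 39 to 43 of those tested over the other settings and 36 to 41 with a library left out.

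Same-numbered libraries were not shown to be paired: their deviations correlated at -0.07, 0.16 and -0.04, and the labels do not say what a number marks. With the replicate number as a block, 543 genes and 0 members were called (*MYC* -0.69, adjusted p = 0.0721), and with the GC offset as well, 422 lower and 378 higher. Among the list genes called, *ODC1* was no longer called with the block (-0.48, adjusted p = 0.0579), and neither was *CASC19* with the block (adjusted p = 0.0787) or with the block and the GC offset (adjusted p = 0.0679). *KLF10* was called without siRNA replicate 3 (adjusted p = 0.0432).

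Of the genes called in the other lists, *RCC1*, *EIF4A1*, *GADD45A*, *GADD45B* and *ITGB1* passed whichever library was left out, and all passed without siRNA replicate 1. The highest adjusted p was 0.0814 for *MGA* and 0.0539 for *SET*, both without scramble replicate 2, and 0.0822 for *CDK9* and 0.108 for *ODC1*, both without scramble replicate 1. It was 0.0750 for *MCM4* without scramble replicate 3 and 0.0805 for *ARID4A* and 0.122 for *BHLHE41* without scramble replicate 1. Without scramble replicate 2 it was 0.129 for *ARID4B*, 0.0768 for *CDKN2B* and 0.224 for *CASC19*. *MCM4* also fell short without scramble replicate 1 (0.0564) and siRNA replicate 2 (0.0576), *MGA* without scramble replicate 3 (0.05035) and *CDK9* without scramble replicate 3 (0.0702). *BHLHE41*, *ODC1*, *CDKN2B*, *ARID4A*, *ARID4B* and *CASC19* passed in 2, 2, 2, 1, 2 and 1 of the 6 fits. Few reads limit the precision for *MYCL*, *MYCN*, *MGA*, *CASC19* and *EIF4A1*, and *EIF4A1* was not tested with at least 10 counts in every library.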
